A study of Mus musculus with 14 samples.

Results

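The comparison described here is that of Clk3 knockout hearts with wild-type hearts after sham surgery, before any pressure load. Its members are the 8 libraries labelled sham, of 14 in the series: 4 labelled WT and 4 labelled Clk3 KO. Poly(A)-selected RNA from hearts of C57BL/6J mice was sequenced, and the series asks what Clk3 does in cardiac hypertrophy. The other 6 libraries came from hearts after TAC, taken here as transverse aortic constriction, an operation that narrows the aorta and loads the left ventricle. In each sham group 2 libraries were from mice aged 10 weeks and 2 from mice aged 11 weeks, so age is balanced between the genotypes. All 6 TAC libraries were from mice aged 10 weeks, so the sham and TAC sets differ in age as well as surgery. Most libraries of the 2 sets also differ in clock genes, as given at the end. The sources used here give neither the making of the knockout allele nor the exons it lacks, the sex of the mice or the time after surgery. Separate animals are not stated for the libraries, and the p-values therefore speak only of the spread among samples, some of which may be technical.

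Clk3 encodes a CDC-like kinase. These nuclear kinases phosphorylate the serine- and arginine-rich (SR) proteins, which bind pre-mRNA and help select splice sites, and phosphorylation moves SR proteins out of nuclear speckles. Together with the SRPK kinases they set how much SR protein is available for splicing. In the heart, splicing shapes proteins such as titin and the calcium handling machinery.

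Gene counts were 12836936 to 20369637 per library in wild type and 13334635 to 14733656 in knockout. Levels are given below as CPM, that is counts relative to the TMM-scaled size of their library. The 8 markers of ventricular myocytes summed to 32880.4 to 37775 CPM in wild type and 35027 to 37969 CPM in knockout, while the 8 markers of lung epithelium summed to at most 1 CPM, with Scgb3a2 and Sftpc at 0 in all 8 libraries. Several libraries stood apart. Wild-type sham 1 was the shallowest library of the comparison. It resembled the knockouts in its share of reads outside annotated features (17.6%, against 14.3 to 15.7% in the other wild types and 17.1 to 19% in knockout) and of mitochondrial transcripts (6.05%, against 4.07 to 4.95% and 5.56 to 5.78%). Knockout sham 4 stood apart in clock genes: Arntl, a core activator of the circadian clock, was at 24.4 CPM there and at 4.43 to 5.52 CPM in the other knockouts. Genotype groups differed in the share of reads outside annotated features by 2.16 percentage points (exact two-sided permutation test, p = 0.0857, adjusted over 9 library and Clk3 measures 0.154, n = 4 and 4). Without wild-type sham 1 the difference was 2.77 percentage points. Among the TAC libraries, the one labelled wild-type TAC 1 went against its genotype label in genes described below, so TAC libraries were kept out of the fit.

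Clk3 itself was lower in every knockout library, but reads of the gene were still abundant. It was measured at 73.6, 92.9, 77.4 and 96.4 CPM in wild-type sham 1 to 4 and at 67.8, 65.1, 63.1 and 67.2 CPM in knockout sham 1 to 4. The lowest wild type, replicate 1, lay above the highest knockout, so the groups did not overlap, and the knockouts were tightly grouped. The mean was 85.1 ± 11.3 CPM in wild type and 65.8 ± 2.15 CPM in knockout (SD, n = 4 and 4). An exact two-sided permutation test gave p = 0.029, the smallest that 4 against 4 allows, and 0.0857 after adjustment over the 9 measures. In edgeR's quasi-likelihood test, fitted over the whole table, Clk3 had a log2 difference of −0.37 ± 0.09 (SE) and an adjusted p of 0.0728, which misses the threshold of 0.05. It passed without wild-type sham 1 (log2 −0.44, edgeR adjusted p = 0.0265) and by DESeq2 (−0.38, adjusted p = 0.00925). After TAC it was at 54.1 and 92.2 CPM in the libraries labelled wild-type TAC 1 and 2 and at 64.8, 54.8, 50.7 and 61.4 CPM in knockout TAC 1 to 4, so that the one labelled wild-type TAC 1 lay within the knockout range.

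Both parts of the Clk3 transcript were lower to a like degree. The coding part stood at 51.1 to 65 in wild type and 43.9 to 46.7 CPM in knockout, and the untranslated part at 22.5 to 31.4 and 19.2 to 21.2 CPM. Neither overlapped between genotypes. The untranslated share of Clk3 counts was 31.8 ± 0.89% in wild type and 31.1 ± 0.475% in knockout (SD, n = 4 and 4, exact two-sided permutation p = 0.171), and these ranges overlapped. Which exons of Clk3 the remaining reads fall on cannot be read from counts per gene.

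**Figure D1:**
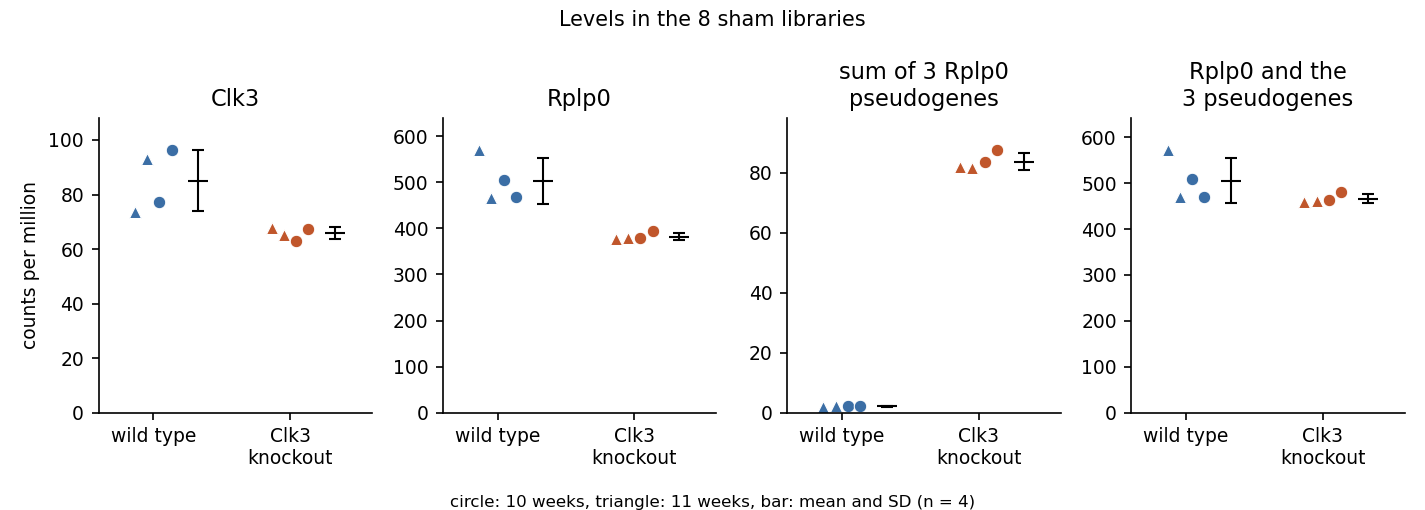
CPM (y axis, each panel from 0) in the 4 wild-type and 4 knockout sham libraries for Clk3, Rplp0, the sum of 3 Rplp0 pseudogenes, and Rplp0 with the pseudogenes; circles are 10-week and triangles 11-week libraries, and bars are the mean and SD. Clk3 is lower in knockout but far from 0, the pseudogenes are near 0 in wild type only, and the total of Rplp0 and its pseudogenes overlaps between genotypes.

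The largest difference between the genotypes lay in 3 processed pseudogenes of Rplp0, the gene for the large-subunit ribosomal protein P0. A processed pseudogene is an intronless genomic copy of a messenger RNA. The 3 copies lie on 3 chromosomes other than that of Rplp0 (GRCm38): Gm8730 at chr8:102864845-102865798 (minus strand), Gm9625 at chr13:67810246-67811200 (plus strand) and Gm14165 at chr2:152353615-152354566 (plus strand). Rplp0 is at chr5:115559467-115563727 (plus strand). Aligned to transcript Rplp0-201 of GENCODE M21, the copies are 98.7%, 97.4% and 97.2% identical to it over their length.

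Gm8730 stood at 1.34, 1.36, 1.26 and 1.62 CPM in wild-type sham 1 to 4 and at 57.7, 58.3, 59.5 and 62.8 CPM in knockout sham 1 to 4. Gm9625 was at 0.628, 0.657, 1.1 and 0.487 in the wild types and 16.5, 16.2, 16.1 and 17.5 CPM in the knockouts. Gm14165 had 0, 3, 1 and 3 counts in the wild-type libraries and 112, 92, 109 and 99 in the knockouts. In all 3 copies every wild type was near 0 and every knockout far above it. The summed counts gave a ratio of 42.6 for Gm8730 (95% exact interval 34.8 to 52.5), 23 for Gm9625 (17.3 to 31.1) and 75.4 for Gm14165 (36.3 to 189), intervals that cover counting error only. The edgeR adjusted p-values were 4.73e-11, 1.90e-07 and 9.72e-07. These calls held whichever library was left out and at each age alone.

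Rplp0 moved the other way. It was at 571, 467, 506 and 468 in the wild types and 377, 379, 379 and 393 CPM in the knockouts, with no overlap (log2 −0.39 ± 0.07, SE, edgeR adjusted p = 0.0437). Reads of near-identical copies can be split between them in counting, so the level of each is uncertain. Summed over Rplp0 and its 3 copies, the level was 573, 469, 508 and 469.9 in the wild types and 459, 461, 463 and 481 CPM in the knockouts. These sums overlapped (exact two-sided permutation p = 0.171, n = 4 and 4), and the mean was 505 against 466 CPM. The copies held 0.441 ± 0.0659% of the family's counts in wild type and 17.9 ± 0.223% in knockout (SD, n = 4 and 4). In the library labelled wild-type TAC 1 the 3 copies stood at 66.8, 20.2 and 6.98 CPM, above the knockout sham range for the first 2 and just below it for Gm14165, whereas in wild-type TAC 2 they were at 1.63, 0.592 and 0.148 CPM.

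Across the transcriptome, 99 of 14740 tested genes passed (edgeR, adjusted p under 0.05; 0.672%), 65 higher in knockout (0.441%) and 34 lower (0.231%). All 99 had no overlap between genotypes, a property shared by 1744 tested genes (11.8%), and 2816 genes (19.1%) had an unadjusted p under 0.05, the share against which the unadjusted counts of the gene lists below are to be read. Most of the differences were small. Leaving out the 3 pseudogenes, the median rise was 1.36-fold and the median fall 1.41-fold, and 27 of the 99 reached 1.5-fold. The smallest adjusted p beyond the pseudogenes was 0.00388, that of Armh4. All 99 had the same sign at 10 weeks alone and at 11 weeks alone. The lack of overlap all but fixes this in advance, so it is no separate support. At 10 and 11 weeks alone 3 and 13 genes passed.

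The number that passed rested on single libraries. It was 717 without wild-type sham 1, all of the 99 among them. It was 10, 7 and 8 without wild-type sham 2, 3 and 4, and 7, 4, 10 and 62 without knockout sham 1 to 4. The calls of Armh4 and the 3 pseudogenes held in all 8 of these fits and that of 5430431A17Rik in 7, while each of the other 94 genes held in 1 to 5.

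Among the rises, Armh4 had the largest of any gene with a mean above 5 CPM in wild type. It was at 16.9, 18.2, 17.2 and 17.1 in the wild types and 30.2, 35.5, 41.9 and 30.8 CPM in the knockouts, and its lowest knockout was well above its highest wild type (log2 0.99 ± 0.11, SE, edgeR adjusted p = 0.00388). Mylk4, a myosin light chain kinase gene of heart and skeletal muscle, was at 209, 256, 265 and 215 in the wild types and 355, 371, 431 and 316 CPM in the knockouts. Its groups were also apart, by 0.64 on the log2 scale (edgeR adjusted p = 0.0326). Ppm1e, which encodes a PP2C-family protein phosphatase, was at 16, 18.6, 17.4 and 19.5 in the wild types and 27.6, 27.2, 34.7 and 23.3 CPM in the knockouts (log2 0.66 ± 0.12, edgeR adjusted p = 0.0437). Smg1, the kinase that marks the helicase UPF1 in nonsense-mediated decay, was at 129.8 to 178 in wild type and 231 to 283 CPM in knockout. Its log2 difference was 0.71 (edgeR adjusted p = 0.0229).

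The other rises that the rule selected by size were Zfp871, a zinc finger gene (0.72 on the log2 scale), Dzip3, an RNA-binding ubiquitin ligase (0.72), Dync2h1, the heavy chain of the dynein that works in cilia (0.74), D3Ertd751e (0.82) and Fam81a (0.80). The olfactory receptor gene Olfr1034 was at 2.02 to 3.06 in wild type and 5.06 to 5.95 CPM in knockout. The germ-cell helicase gene Ddx4 was at 0.469 to 0.714 in wild type and 1.11 to 2.0 CPM in knockout, and Gm10097 at 0.516 to 0.707 in wild type and 1.2 to 1.77 CPM in knockout. Both rose at levels that rest on few counts.

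Very long genes were common among the rises. Ttn, which encodes the giant elastic protein of the sarcomere, was at 8243, 7895, 7660.2 and 8626 in the wild types and 10611, 11055, 11012 and 9863 CPM in the knockouts. Every knockout lay above every wild type, by 0.39 on the log2 scale (edgeR adjusted p = 0.0347). Syne1, the nuclear envelope spectrin nesprin-1, was at 181, 191, 173 and 192 in the wild types and 252, 259, 243 and 269 CPM in the knockouts, also apart (log2 0.47 ± 0.06, edgeR adjusted p = 0.016). Usp34, a deubiquitinase gene, rose by 0.48 on the same scale. The median exonic length was 9734 bases in the 65 genes that rose, 3344.5 in the 34 that fell and 4229 in all tested genes with a length. Over 10 kb of exon were found in 31 of the 65 (47.7%), in 1 of the 34 and in 9.06% of tested genes.

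Length and base composition moved with genotype over the whole transcriptome. In the eighth of genes with the greatest exonic length, 37 passed higher and 1 lower. The median log2 difference there was 0.10, against −0.04 in the third eighth. By GC content the median went from 0.19 in the most AT-rich eighth, where 22 genes passed higher and 0 lower, to −0.16 in the most GC-rich, where 0 passed higher and 11 lower. Per library, the AT-rich eighth deviated from the 8-library mean by 0.09, −0.17, −0.02 and −0.25 in wild-type sham 1 to 4 and by 0.07, 0.12, 0.08 and 0.08 in knockout sham 1 to 4 (median log2). In that eighth wild-type sham 1 therefore lay within the knockout range and the other wild types below it. By length wild-type sham 1 did not resemble the knockouts. In the eighth of greatest exonic length it was the lowest library, at −0.088. The other wild types were there at −0.055 to −0.003 and the knockouts at 0.04 to 0.08. In the most GC-rich eighth it was at −0.03, between the knockouts (−0.09 to −0.05) and the other wild types (0.03 to 0.20). With each library's smooth trend on exonic length removed, 14 genes passed, and 10 with the trend on GC content removed as well. The 10 shared 7 with the 99: the 3 pseudogenes, Armh4, 5430431A17Rik, D3Ertd751e and Olfr1034. Ttn went from 0.39 to −0.06 and Syne1 from 0.47 to 0.22 on the log2 scale with both trends removed. With the share of reads outside annotated features as a covariate 3 genes passed.

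**Figure D2:**
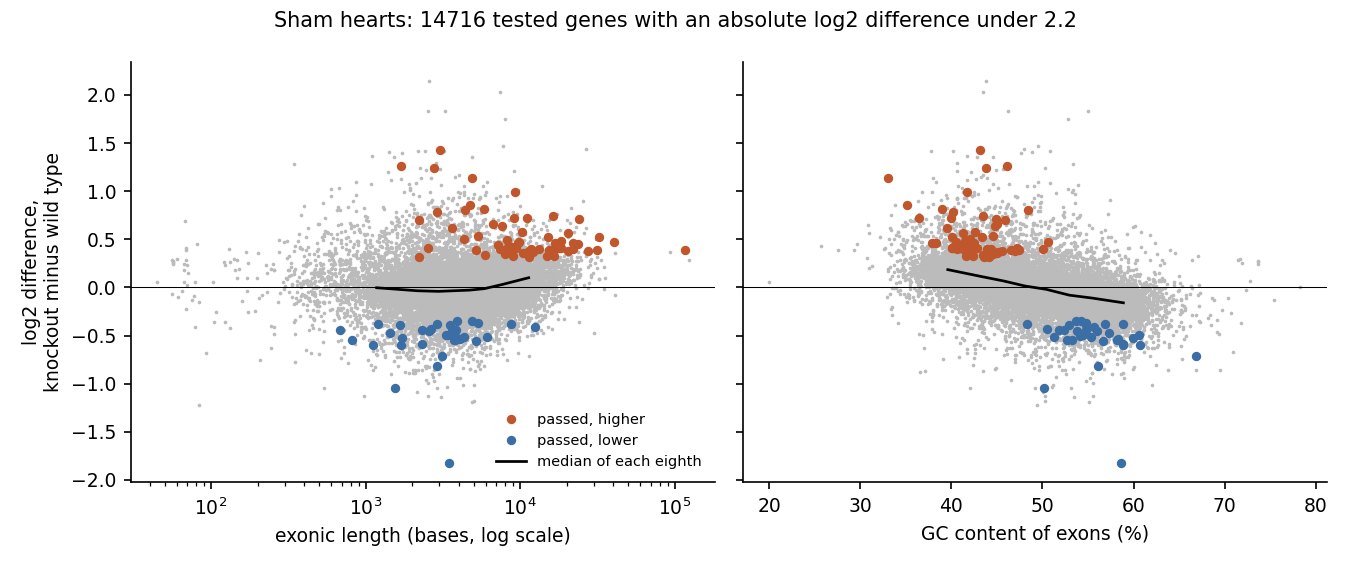
Log2 difference (knockout minus wild type, y axis) of tested genes against exonic length in bases (left, log axis) and GC content of exons in percent (right); grey points did not pass, coloured points passed higher or lower, and the black line joins the median of each eighth of genes. Genes that passed higher sit toward great exonic length and low GC content, and those that passed lower toward high GC content. The 4 genes past a difference of 2.2, the 3 pseudogenes among them, are not drawn.

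The falls included a long noncoding RNA, a receptor and several genes of secreted proteins. The long noncoding RNA 5430431A17Rik was at 38.1, 55.4, 38.9 and 48.8 in the wild types and 22.1, 21.5, 20.1 and 24.5 CPM in the knockouts, all knockouts below the lowest wild type (log2 −1.04 ± 0.12, SE, edgeR adjusted p = 0.00925, and 0.0663 without knockout sham 2). Ngfr, the p75 neurotrophin receptor, was at 1.1, 0.938, 1.15 and 1.52 in the wild types and 0.277, 0.154, 0.354 and 0.514 CPM in the knockouts. Its levels were low but separate, with a log2 difference of −1.83 ± 0.34 (edgeR adjusted p = 0.0437).

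Genes of the matrix and of the cells that make it came next in the rule's selection. Col1a2, the alpha-2 chain of type I collagen, was at 202, 205, 205 and 229 in the wild types and 170.3, 149.6, 145 and 167 CPM in the knockouts. All knockouts were below all wild types (log2 −0.41 ± 0.07, SE, edgeR adjusted p = 0.0437). Biglycan (Bgn), a small proteoglycan that binds collagen, was at 247, 211, 253 and 290.4 in the wild types and 192, 149, 178 and 179.7 CPM in the knockouts (log2 −0.52 ± 0.10, edgeR adjusted p = 0.0484). Cytoglobin (Cygb), a haem protein of fibroblast-like cells, was at 104, 97.4, 99.8 and 114 in the wild types and 73.2, 64, 74.7 and 63.6 CPM in the knockouts, again apart (log2 −0.59 ± 0.08, edgeR adjusted p = 0.0174). Igfbp6, a binding protein of insulin-like growth factors, was at 14.3 to 15.9 in wild type and 9.0 to 10.9 CPM in knockout. Tgfbi, a secreted adhesion protein, was at 21.6 to 26.9 in wild type and 15.6 to 17.8 CPM in knockout. Aebp1, a secreted collagen-binding protein, was at 20.3 to 27.7 in wild type and 15.5 to 16.4 CPM in knockout. All 3 fell, and none of them overlapped between genotypes, which the rule that selected them requires. Sod3, the extracellular superoxide dismutase, and Rcn3, a calcium-binding protein of the endoplasmic reticulum, fell by 0.54 and 0.53 on the log2 scale. Other falls that the rule selected were Fam171a2 (−0.71), the arterial gap junction gene Gja4 (−0.60) and Sh3bgrl3 (−0.54). Further falls, named after their values were seen, were Pcolce (−0.45), an enhancer of procollagen processing, the metalloproteinase inhibitor Timp2 (−0.35), the proteoglycan Prelp (−0.46) and the complement inhibitor Serping1 (−0.45).

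**Figure D3:**
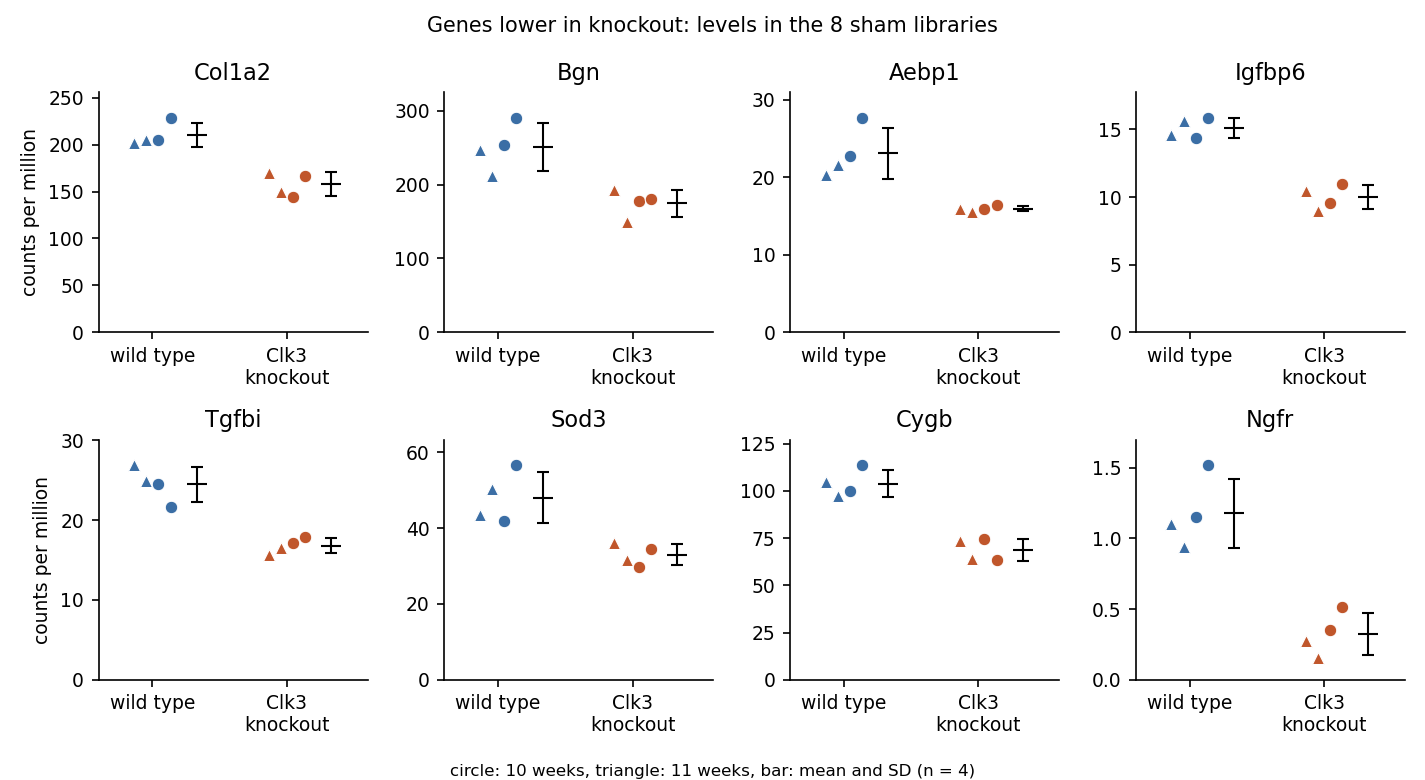
CPM (y axis, from 0) in the 4 wild-type and 4 knockout sham libraries for 8 genes that were lower in knockout; circles are 10-week and triangles 11-week libraries, and bars are the mean and SD. In each gene all 4 knockouts lie below all 4 wild types, Ngfr at about 1 CPM or less in most libraries.

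In the list of fibrillar matrix and fibrosis genes, 2 of 43 tested members passed, Col1a2 and Bgn, both lower (background 0.231%), and 19 had an unadjusted edgeR p under 0.05, all lower, beside 19.1% of all tested genes in either direction. The median log2 difference was −0.29, beside −0.00492 over all tested genes, and 40 of the 43 members were lower. With the length and GC trends removed that median was −0.25. Of the 13 fibroblast markers none passed (edgeR; 9 at an unadjusted p under 0.05, all lower), with a median of −0.25, or −0.19 with both trends removed. Their sum was 3033 to 3570.4 CPM in wild type and 2628 to 3051 CPM in knockout, and none was at 0. Col1a1, the partner chain of Col1a2 and a member of both lists, was at 109, 138, 136 and 157 in the wild types and 93.7, 84.7, 79.5 and 116 CPM in the knockouts, where replicate 4 overlapped the lowest wild type (edgeR adjusted p = 0.0728). By sign, 12 of the 13 fibroblast markers were lower and 1 higher. Pdgfra, a receptor that defines the lineage, was named after its values were seen. It overlapped between genotypes, at 57.1 to 63.5 CPM in wild type and 55.3 to 62.7 CPM in knockout.

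Other stromal and blood cell markers also had medians below 0, with no member past the threshold in edgeR. The median was −0.37 for 7 pericyte markers (5 lower and 1 higher at an unadjusted p under 0.05), −0.31 for 7 smooth muscle markers (1 lower), −0.23 for 13 endothelial markers (6 lower) and −0.19 for 15 macrophage and monocyte markers (6 lower). For 7 erythroid markers it was −0.46 (3 lower). In all tested genes 19.1% had such a p, higher or lower, so the count for smooth muscle is no more than that background. With the length and GC trends removed the medians were −0.25 for pericyte, −0.31 for smooth muscle and −0.25 for endothelial markers. They were −0.17 for macrophage and monocyte markers and −0.35 for erythroid markers. Kcnj8, a potassium channel gene of pericytes, was at 68.7 to 84.6 in wild type and 56.6 to 61.4 CPM in knockout (edgeR adjusted p = 0.0613), and Cspg4, the pericyte proteoglycan NG2, at 44 to 62.8 and 33.6 to 43.7 CPM (edgeR adjusted p = 0.0728). The sums were 1820.4 to 1919.7 CPM in wild type and 1913 to 1992 CPM in knockout for pericyte, 3032 to 3578 CPM in wild type and 2675 to 3152 CPM in knockout for endothelial and 425 to 446 CPM in wild type and 315 to 431 CPM in knockout for macrophage markers. The pericyte sum thus leaned higher in knockout, with overlap, though the median was below 0. Of the 7 pericyte markers 5 were lower and 2 higher, 1 of the 2 without overlap. The part of the stromal and blood cell types in the falls of matrix genes was not tested. In whole hearts, fewer cells of a type and less RNA per cell cannot be told apart.

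Few relatives or substrates of Clk3 passed. In a list of 12 CLK, SRPK and related kinases 1 passed, higher, beside 0.441% of all tested genes. It was Hipk3, whose action on SR proteins is not shown here. Hipk3 was at 314, 351, 347 and 302 in the wild types and 394, 423, 445 and 413 CPM in the knockouts (log2 0.35 ± 0.07, SE, edgeR adjusted p = 0.0498). Its call held in 1 of 8 fits with a library left out, and the edgeR adjusted p was 0.0772 with the length trend removed. The list's median was 0.14 (0.05 with the length and GC trends removed), and 5 members were higher at an unadjusted p under 0.05. Of all tested genes 19.1% had such a p in either direction. The other CLK genes, named for their kinship after their values were seen, differed among themselves. Clk1 was at 192, 186, 148 and 151 in the wild types and 204, 245, 246 and 258 CPM in the knockouts, with no overlap (edgeR adjusted p = 0.0566). Clk4 was at 76.3 to 99.3 and 105 to 110.5 CPM (adjusted p = 0.127), and Clk2, at 30.6 to 39.1 and 31.8 to 33.5 CPM, overlapped. Of 24 SR proteins and SR-related factors none passed (edgeR; 1 higher and 3 lower at an unadjusted p under 0.05, median 0.05). Srsf9 had the smallest p, at 22.4, 25.2, 20.9 and 26.6 in the wild types and 20.4, 20.2, 20.3 and 20. CPM in the knockouts, just apart (edgeR adjusted p = 0.19).

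None of 25 heart splicing regulators passed (edgeR; 3 higher and 1 lower at an unadjusted p under 0.05, beside 19.1% of all tested genes, median 0.08). Quaking (Qk), a regulator of muscle splicing, was at 516 to 676 in wild type and 669 to 777 CPM in knockout (edgeR adjusted p = 0.10). Ptbp1, a splicing repressor, was at 45.9 to 68.1 and 43.8 to 51.2 CPM (adjusted p = 0.139). Of 30 core spliceosome genes none passed (edgeR; 1 higher and 5 lower unadjusted, median −0.05). Sf3b1, the largest part of the SF3b complex, was at 264 to 329 in wild type and 341 to 379 CPM in knockout (edgeR adjusted p = 0.0719).

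None of the 24 tested load-induced genes passed in edgeR. Xirp2, an actin-binding gene of the intercalated disc, came nearest, at 1544, 1254, 1519.6 and 1479 in the wild types and 1792, 1732, 2095 and 1979.6 CPM in the knockouts. Its groups did not overlap (log2 0.39 ± 0.08, SE, edgeR adjusted p = 0.0613), and it passed without wild-type sham 1 (edgeR adjusted p = 0.0296) and by DESeq2 (adjusted p = 0.00287). Nppa, for atrial natriuretic peptide, was at 104, 139, 193 and 218 in the wild types and 196, 163, 236 and 119 CPM in the knockouts, overlapping (log2 0.12 ± 0.23, edgeR adjusted p = 0.805). Nppb (B-type natriuretic peptide), Myh7 (fetal beta-myosin) and Ankrd1 (a stress-responsive titin partner) differed by 0.27 ± 0.22, 0.23 ± 0.41 and 0.09 ± 0.11 (log2, SE), with edgeR adjusted p-values of 0.524, 0.792 and 0.707. Myh7 varied widely within each group, from 121 to 641 CPM in wild type. Acta1, skeletal alpha-actin, was at 429, 175, 463 and 627 in the wild types and 313, 265, 225 and 191 CPM in the knockouts (log2 −0.77 ± 0.29, edgeR adjusted p = 0.192), with the low wild type, replicate 2, below all knockouts. The adult alpha-myosin gene Myh6 differed by −0.03 ± 0.09 (adjusted p = 0.896). In the load-induced list 1 gene was higher and 1 lower at an unadjusted edgeR p under 0.05, beside 19.1% of all tested genes, and the median was 0.02.

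Ttn was the one sarcomere gene of 23 that passed, higher, beside 0.441% of all tested genes. The list's median was 0.06, and 3 members were higher and 2 lower at an unadjusted p under 0.05, close to the 19.1% of all tested genes. Of 26 calcium and potassium handling genes none passed in edgeR, with 7 higher at an unadjusted p under 0.05 and none lower, and a median of 0.13. That median was 0.09 with the length and GC trends removed. Atp2a2, which encodes the pump that refills the calcium store of the myocyte, was at 7163, 7339, 7533 and 7887 in the wild types and 8572, 8836, 8795 and 8158 CPM in the knockouts, with no overlap (log2 0.20 ± 0.06, edgeR adjusted p = 0.113). Ryr2, the calcium release channel of the same store, was at 1744 to 2186 in wild type and 2099 to 2670.3 CPM in knockout, where replicate 4 was the lowest (adjusted p = 0.111). Ece1, the endothelin-converting enzyme, was the one gene of 24 of adrenergic, angiotensin and endothelin signalling that passed, lower, beside 0.231% of all tested genes. It was at 128, 136, 128 and 137 in the wild types and 106, 99.2, 94.6 and 110.0 CPM in the knockouts (log2 −0.36 ± 0.07, edgeR adjusted p = 0.0437).

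Genes of energy metabolism gave no call in edgeR, and the unadjusted counts below stand beside 19.1% of all tested genes. The median was 0.07 for 35 genes of fatty acid use (6 higher and 1 lower at an unadjusted p under 0.05), 0.05 for 26 of the tricarboxylic acid cycle (4 and 0), 0.07 for 42 nuclear genes of the respiratory chain (1 and 0) and −0.03 for 23 of glucose use (1 and 0). Cd36, the fatty acid transporter, was at 2174, 1759.8, 2179 and 1875 in the wild types and 2411, 2450.0, 2270.3 and 2411 CPM in the knockouts (edgeR adjusted p = 0.116). The 11 tested transcripts of the mitochondrial genome had a median of 0.27, with all 11 higher and 5 at an unadjusted p under 0.05. mt-Co1, a subunit of cytochrome oxidase, was at 11728, 7690.4, 9544 and 8362 in the wild types and 11503, 11888, 11356 and 11015 CPM in the knockouts (edgeR adjusted p = 0.19). Wild-type sham 1 lay among the knockouts, and without it the list's median was 0.40. With the length and GC trends removed it was 0.09.

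In the other lists at most 1 gene passed. Rplp0 was the one of 64 cytosolic ribosomal protein genes, lower, beside 0.231% of all tested genes (median 0.04). Tug1 was the one of 11 nuclear long noncoding RNAs, higher, beside 0.441% of all tested genes, at 66.4, 52.7, 53.8 and 53.8 in the wild types and 73.6, 75.8, 77.6 and 84.6 CPM in the knockouts (edgeR adjusted p = 0.0437). None passed among 17 cytokine and chemokine genes (edgeR; 7 lower at an unadjusted p under 0.05, beside 19.1% of all tested genes, median −0.29), 39 cell cycle genes (5 lower and 1 higher, median −0.14), 16 basement membrane genes (5 lower and 1 higher, median −0.20) or 22 immediate early genes (2 lower, median −0.07). The chemokine gene Cxcl12 was at 319 to 411 in wild type and 284 to 326 CPM in knockout (edgeR adjusted p = 0.103), and Klf10, an early gene of TGF-beta signalling, at 33.6 to 45.6 and 19.4 to 32.1 CPM (adjusted p = 0.0608). Klf10 did not overlap between genotypes, and Cxcl12 did. In 9 further lists, among them heat shock, interferon, stress response, clock and lipid synthesis genes, none passed in edgeR, with 0 to 6 members at an unadjusted p under 0.05 and medians of −0.09 to 0.07.

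**Figure D4:**
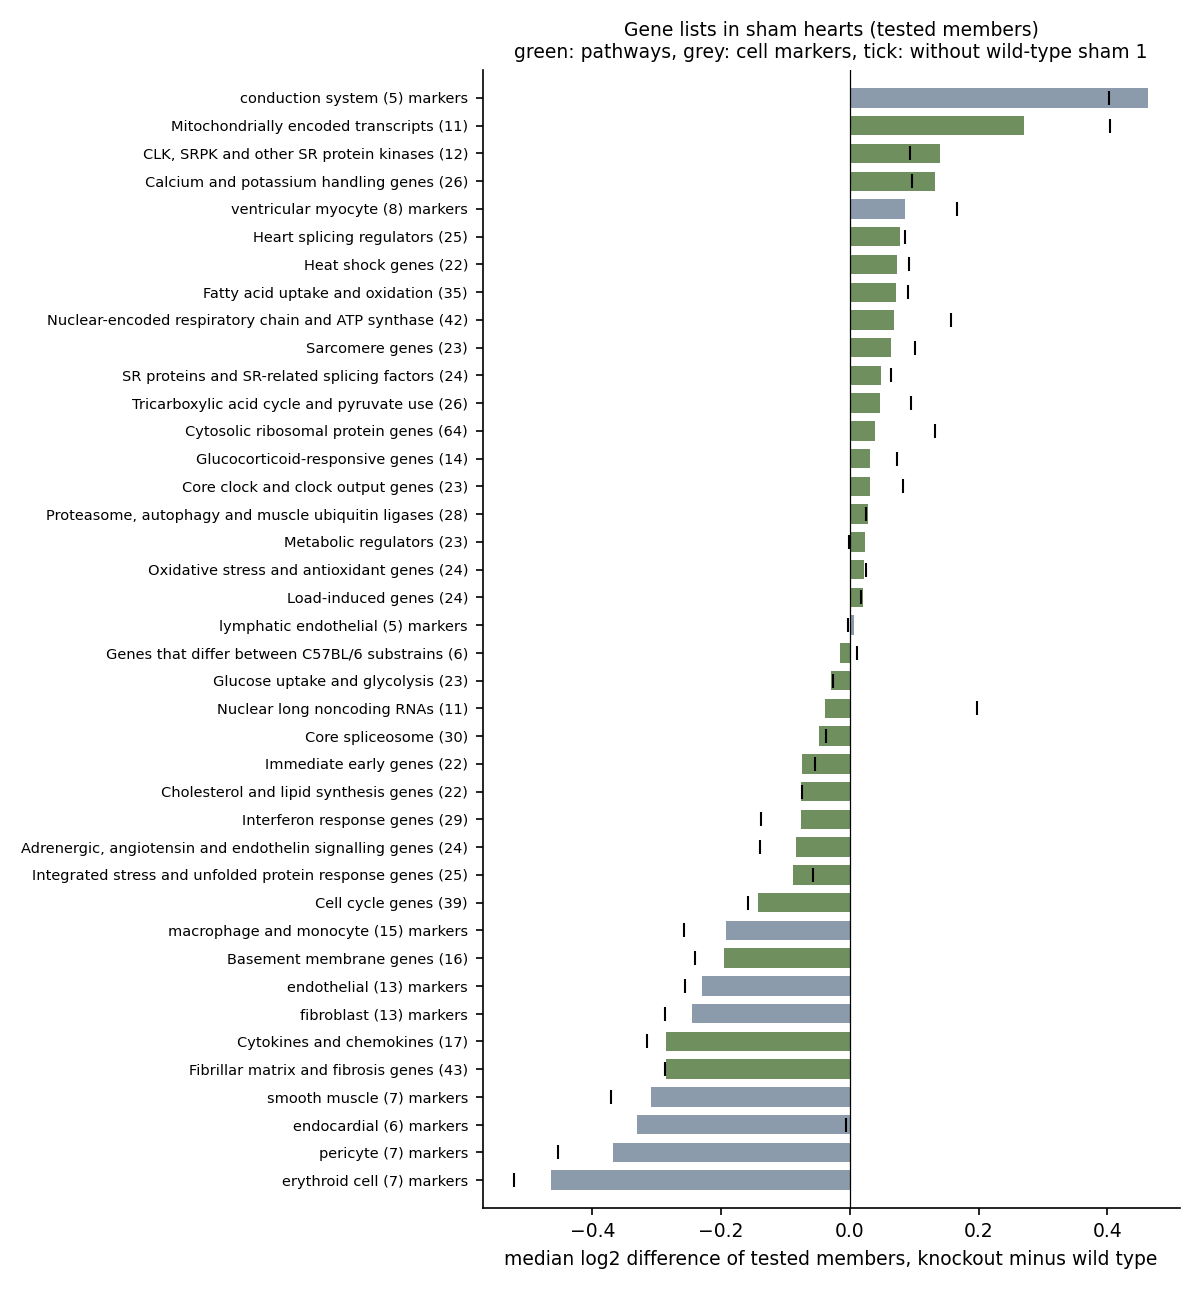
Median log2 difference (knockout minus wild type, x axis) of the tested members of each gene list with at least 5 tested members, whose number is in brackets; green bars are pathway lists, grey bars marker lists of cell types, and black ticks the median without wild-type sham 1. Fibrillar matrix genes and fibroblast, pericyte, smooth muscle, endothelial and erythroid markers have medians below 0, lymphatic endothelial markers one near 0 (0.0067) and mitochondrial transcripts one above 0.

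Near the targeted gene, 3 of 179 genes tested within 10 Mb of Clk3 on chromosome 9 passed (1.68%, against 0.672% of all genes), all higher. Atm, the kinase of the DNA damage response, was at 17.6, 20.2, 17.8 and 18.1 in the wild types and 27, 30.2, 27.5 and 25.5 CPM in the knockouts, well apart (log2 0.58 ± 0.08, SE, edgeR adjusted p = 0.0229). Herc1, a giant ubiquitin ligase, and Dmxl2, a regulator of the vacuolar proton pump, rose by 0.38 and 0.40 (edgeR adjusted p = 0.0437 and 0.0498). The exons of these 3 genes span 10338, 27464 and 13285 bases, so they are also long. Of 6 tested genes that differ between C57BL/6 substrains none passed in edgeR, and 1, Ide, had an unadjusted p under 0.05. Nnt, which is partly deleted in C57BL/6J, was at 6.61 to 8.95 in wild type and 6.16 to 7.12 CPM in knockout, and these ranges overlapped.

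Coding and untranslated counts were also deposited apart for each gene. Their ratio does not tell shifts in transcript ends from a change in exon choice. Of 9931 genes tested, none was called for a changed ratio of untranslated to coding counts (limma, adjusted p under 0.05, 0.0%). An unadjusted p under 0.05 was found in 488 (4.91%), about the share that chance alone gives at this threshold. Without wild-type sham 1 the limma count was 974 of 10026 genes tested. An edgeR model of both parts called none either, with 421 at an unadjusted p under 0.05. The smallest p was that of Car4, a carbonic anhydrase gene of capillaries. Its untranslated share was 5.02, 5.48, 4.84 and 5.3% in wild type and 8.22, 8.25, 9.03 and 8.29% in knockout, with no overlap (limma adjusted p = 0.262). In Kmt2a, a histone methyltransferase gene, the share was 51.9, 54.7, 53.7 and 53.9% in wild type and 46.2, 44.6, 43.8 and 45.2% in knockout (adjusted p = 0.371). Glrx2, a mitochondrial glutaredoxin gene, and Bbs1, a gene of the BBSome of cilia, went from 40.8 ± 3.1 to 51.8 ± 1.44% and from 77.6 ± 1.75 to 68.5 ± 2.06% (mean ± SD, n = 4 and 4, limma adjusted p = 0.371 for both). The other genes of the 10 with the smallest p were Lekr1, Mrpl57, Nutf2, Klhl32, Tanc2 and Tdrkh, each with an adjusted p of 0.371.

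The genes that passed in sham hearts were followed in the TAC libraries, which share no sample with the sham comparison. After TAC 60 of 14899 genes passed between the genotypes (edgeR, 0.403%). Of the 99 genes, 98 were tested there and 96 had the same sign, as did 65.7% of all tested genes. The median went from 0.45 to 0.27 in the rises and from −0.50 to −0.46 in the falls. Col1a2, Mxra8, Prelp and Mylk4 were among the 5 genes that passed in the same direction both times, 5.05% of the sham calls and 8.33% of those after TAC. Without the library labelled wild-type TAC 1, 93 of 98 kept their sign and 7 genes passed, of which 3 were sham calls, the Rplp0 pseudogenes. That fit rests on 1 wild-type library, whose spread is assumed to be like that of the knockouts. All 5 genes were lost from the shared calls and the 3 pseudogenes gained.

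Ppm1e was one of 2 genes of opposite sign after TAC, the other being Dzip3 (−0.05). It was at 46.3 and 51.4 CPM in the libraries labelled wild-type TAC 1 and 2 and at 32.5, 34.9, 39.9 and 31.9 CPM in knockout TAC 1 to 4, a log2 difference of −0.49, against 0.66 in sham. The difference between the effects was −1.14 in a fit of all 14 libraries (edgeR adjusted p = 0.0403). Postn (−1.87) and Ddah1 (−1.04) passed in that fit as well, at the same adjusted p, among 15651 genes tested. 5430431A17Rik was at 22.8 and 84.3 CPM in the libraries labelled wild-type TAC 1 and 2 and 9.99 to 28.2 CPM in knockout TAC. Armh4 was at 8.97 and 15.8 CPM in wild-type TAC 1 and 2 and 15.4 to 26.9 CPM in knockout TAC.

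**Figure D5:**
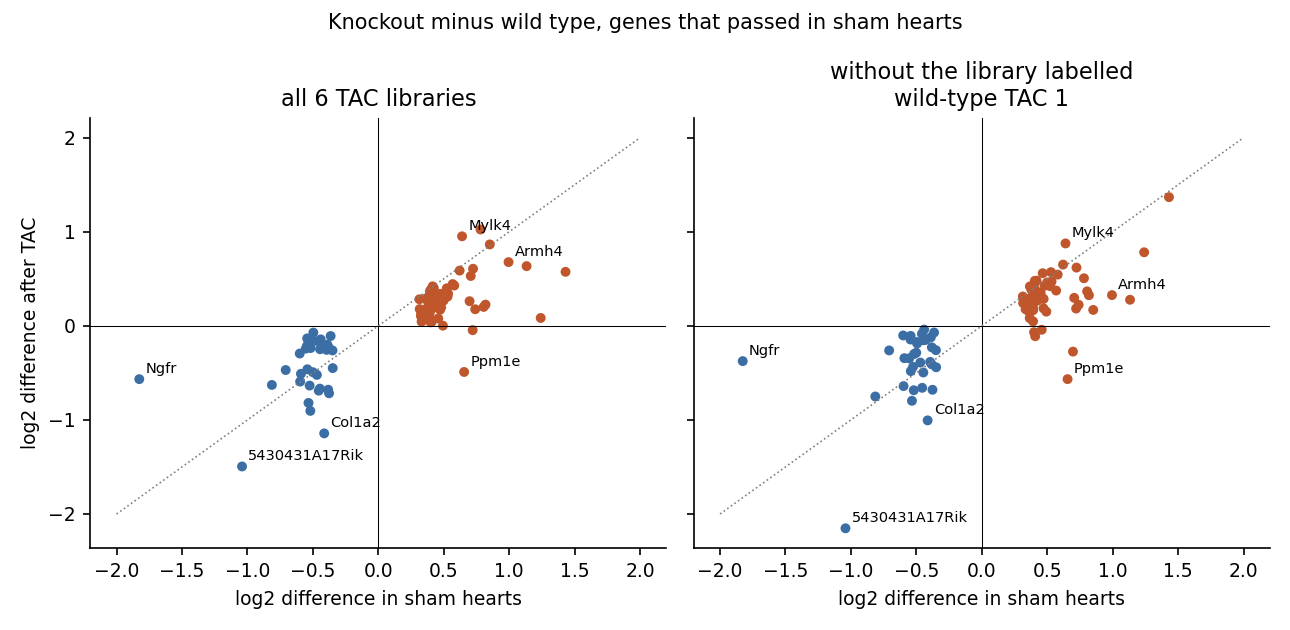
Log2 difference between knockout and wild type after TAC (y axis) against that in sham hearts (x axis) for the genes that passed in sham hearts and were tested after TAC, other than the 3 Rplp0 pseudogenes, with all 6 TAC libraries (left) and without the library labelled wild-type TAC 1 (right); the dotted line marks equal differences. Most points lie in the quadrants of equal sign, and Ppm1e is higher in sham knockouts and lower in TAC knockouts.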

How the data were processed

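The gene counts were deposited by the authors as whole numbers per gene and library, split into coding and untranslated parts, with no normalization. Per the labels' protocols, total RNA was poly(A)-selected and made into strand-specific libraries. Per the submitters' processing notes, bcl2fastq 2.17.1.14, STAR 2.4.2a and Picard 2.10.3 were used, with roles not given, and the build was mm10. The strand setting of counting is not given in the sources used here. Entries that name no gene entered neither library sizes nor tests, and their share is given as reads outside annotated features.

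From these counts, the 8 sham libraries were fitted with edgeR 4.0.16 (R 4.3.3; TMM scaling, filterByExpr with a minimum count of 10, quasi-likelihood test, Benjamini-Hochberg threshold 0.05). The ratio of untranslated to coding counts was tested with limma 3.58.1 on log2 values (pseudocount 0.5, at least 10 counts of each part in every library). DESeq2 1.42.0 was an alternative, as were other scalings, filters, covariates, ages alone and each library left out. Symbols, lengths, GC content and positions came from GENCODE M21 (51719 of 51912 identifiers found). Exonic length was the number of bases in any exon of a gene, and GC content that of its longest transcript. The 6 TAC libraries were fitted apart.

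Named were Clk3 and 7 load and contraction genes, the 12 largest rises and 12 largest falls without overlap at a mean of 1 CPM or more in the higher group, among genes that are protein coding or carry a symbol other than a Gm number, Rik or clone name, the 10 smallest p-values, passing genes within 10 Mb of Clk3, up to 4 passing members of each list or else up to 2 of smallest p, the substrain genes and the 10 smallest p-values for untranslated share. Some items that this rule selects are not reported here. The comparison and the gene lists were chosen with earlier results of these data known. Each p-value rests on 4 libraries a group.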

Additional observations from a re-analysis of the deposited data

Results flagged for a closer look

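In 7 of 116 groups of 4 libraries checked, the highest or lowest library lay far from the other 3 by Dixon's criterion, and chance alone gives about 5% of groups. Zfp871 was at 16.4 CPM in wild-type sham 2, above 13.4 to 13.9 CPM in the other wild types. Fam171a2 was at 7.46 CPM in wild-type sham 2, above 6.61 to 6.70 CPM. Usp34 was at 115 CPM in wild-type sham 4, below 125 to 127 CPM. Col1a2 was at 229 CPM in wild-type sham 4, above 202 to 205 CPM. Tug1 was at 66.4 CPM in wild-type sham 1, above 52.7 to 53.8 CPM, and so nearest to the knockouts. Rplp0 was at 393 CPM in knockout sham 4, above 377 to 379 CPM in the other knockouts. The clock score, a log2 contrast of clock genes, was −1.12 in knockout sham 4 and −3.34 to −3.24 in the other knockouts. In wild-type sham it was −3.40 to −2.89. After TAC it was −1.14 and −1.12 in the libraries labelled wild-type TAC 1 and 2. In knockout TAC 1 to 4 it was −0.958, −0.755, −2.67 and −1.04. The part of clock genes in differences between the sham and TAC sets was not tested.

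Ppm1e drew attention because its genotype difference changed between sham and TAC hearts, by −1.14 on the log2 scale (edgeR interaction term over 14 libraries, adjusted p = 0.0403). That fit holds the library labelled wild-type TAC 1, where Ppm1e was close to wild-type TAC 2.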

How the results depend on the processing

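The count of 99 genes was 700 by DESeq2, 428 with no filter on low counts, 221 with 13 libraries in 1 fit (the library labelled wild-type TAC 1 left out), 25 with age as a covariate, 3 with the share of reads outside annotated features as a covariate, 3 at 10 weeks, 13 at 11 weeks, 14 and 10 with the length trend and the length and GC trends removed, 27 at 1.5-fold or more, and 658 without both wild-type sham 1 and knockout sham 4. Leaving out 1 library gave 4 to 717. Of 41 named genes that passed, 40 still did with RLE size factors, 38 by DESeq2, 37 and 34 with 13 and 14 libraries in 1 fit, 26 with the clock score and 16 with age as a covariate, 12 and 7 with the length trend and both trends removed, 3 with the read-share covariate and 3 at each age alone. All 41 still did without wild-type sham 1, 26 without knockout sham 4, and 4 to 10 without any other single library. The alternatives on length and GC trends, 13 libraries and both libraries left out were chosen after seeing the data. The Clk3 difference was −0.38 by DESeq2 and −0.44 without those 2 libraries, both past the threshold, and −0.44 to −0.31 with 1 library left out. The median of the fibroblast list was −0.32 without the 2 libraries and that of the sarcomere list 0.12. With the share of reads outside annotated features as a covariate, pericyte markers had −0.16 and sarcomere genes −0.043. Genes with a shifted untranslated share numbered 0 to 1 with 1 library left out (1 without knockout sham 2). Sham calls shared after TAC numbered 0 to 7 (3 when the one labelled wild-type TAC 1 was dropped, 0 without knockout TAC 1 or 2). The sign turned, none past the threshold there, for Nppa (−0.21 at 10 weeks, −0.041 to 0.29 with 1 library left out), Nppb (−0.038 at 11 weeks), Myh7 (−0.75 at 11 weeks, −0.13 to 0.60 with 1 left out), Myh6 (0.061 at 11 weeks, 0.076 with length and GC trends removed, −0.084 to 0.053 with 1 left out), Ankrd1 (−0.027 with the read-share covariate) and Ttn (−0.038 with the length trend and −0.063 with both trends removed). For these changes the cause was not tested. No paired analysis was possible because the replicate numbers follow accession order and pair no libraries.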
